A study of Mus musculus with 2 samples.

Results

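The 44 genes described here are cell cycle genes, followed in tumor mononuclear phagocytes (TMPs) of B16 melanoma. They were taken from the deposited count tables by symbol, and all 44 were found among the 27998 genes listed. Of these, 17 belong to DNA replication and the entry into S phase, 21 to G2 and mitosis, 4 regulate G1, and Hmgb2 and Stmn1 were kept apart from these lists.

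TMPs carrying MerTk and CD64 were sorted by flow cytometry from B16 tumors grown in C57Bl/6 mice, and 1 droplet-based single-cell library was made for Fcmr+/+ mice and 1 for Fcmr-/- mice. Fcmr encodes a receptor for the Fc part of IgM. It was missing from the whole Fcmr-/- animal and not from phagocytes alone, both groups bore the same tumor line, and neither received a further treatment according to the labels. The number of mice behind each library and their age are not given in the sources used here, so each genotype was 1 sample, no test between genotypes was possible and all intervals are exact 95% intervals that cover counting error only.

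The cells kept were 6352 in the Fcmr+/+ library and 7999 in the Fcmr-/- library, with 128408544 and 124630621 unique molecular identifiers (UMIs). The median cell had 17973.5 UMIs in the first and 12911 in the second, so shares of cells are given after every cell was thinned to 5000 UMIs. Levels are CPM, the UMIs of a gene summed over cells for every 1000000 UMIs of those cells. Fcmr itself had 7 UMIs in the Fcmr+/+ library and 6 in the Fcmr-/- library, too few to check the genotypes. Macrophage markers summed to 18873 and 18780 CPM, and 73 cell barcodes occurred in both libraries. Melanoma markers summed to 78.0 and 108 CPM, T and NK cell markers to 2.06 and 16.0 CPM, and markers of B cells, neutrophils, dendritic cells and stroma each stayed below 50 CPM.

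Cells that divide pass through G1, copy their DNA in S phase, and separate the copies in mitosis. D-type cyclins and the inhibitor p21, the product of Cdkn1a, govern the passage out of G1, E2F factors then switch on the replication genes, and mitosis genes follow in G2. Most macrophages in tumors come from blood monocytes and rest in G1 or outside the cycle, but mature macrophages can divide, and growth factors such as CSF1 drive them to do so.

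Replication and mitosis genes are switched on at different times, and their promoters carry different short motifs. The windows searched ran from 250 bases before to 50 bases after the start of each RefSeq transcript on GRCm38.p6, the build of the counts, and 35 of the 44 members had at least 1 window. Searched on both strands were the E2F motif, spelled TTTCCCGC, TTTCGCGC, TTTGCCGC or TTTGGCGC, the CCAAT box, spelled CCAAT, and the cell cycle genes homology region (CHR), spelled TTTGAA. Spellings of the E2F motif on opposite strands can overlap each other. The stretches shown run from 170 bases before the start to 10 bases from it, with the matches in capitals, on the strand of the gene. They were chosen after the matches were seen, because they carry several: Ccnb2 (chr9:70421545-70421724, minus strand), Top2a (chr11:99024180-99024359, minus strand) and Cdk1 (chr10:69352903-69353082, minus strand) for mitosis, Mcm5 (chr8:75109339-75109518, plus strand) and Mcm6 (chr1:128359696-128359875, minus strand) for replication.
Ccnb2: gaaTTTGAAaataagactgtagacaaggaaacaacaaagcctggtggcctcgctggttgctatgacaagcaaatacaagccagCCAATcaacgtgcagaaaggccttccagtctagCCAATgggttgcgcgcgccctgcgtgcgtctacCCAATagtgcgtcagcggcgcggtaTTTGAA
Top2a: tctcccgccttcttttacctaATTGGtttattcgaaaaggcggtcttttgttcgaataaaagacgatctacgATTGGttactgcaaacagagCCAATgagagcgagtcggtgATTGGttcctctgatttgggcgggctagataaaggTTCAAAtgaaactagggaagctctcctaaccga
Cdk1: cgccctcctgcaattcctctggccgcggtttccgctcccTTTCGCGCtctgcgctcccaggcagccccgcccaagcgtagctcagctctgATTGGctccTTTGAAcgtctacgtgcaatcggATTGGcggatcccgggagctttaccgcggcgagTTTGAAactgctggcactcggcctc
Mcm5: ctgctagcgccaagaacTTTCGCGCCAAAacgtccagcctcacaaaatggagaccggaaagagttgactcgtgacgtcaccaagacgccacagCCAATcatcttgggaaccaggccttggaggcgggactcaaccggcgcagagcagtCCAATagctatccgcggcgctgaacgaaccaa
Mcm6: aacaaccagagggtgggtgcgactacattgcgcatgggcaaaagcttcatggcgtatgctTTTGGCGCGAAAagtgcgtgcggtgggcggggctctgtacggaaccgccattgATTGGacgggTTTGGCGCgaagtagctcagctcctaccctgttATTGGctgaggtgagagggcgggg

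The CHR stood in the windows of 13 of 18 mitosis members, a share of 72.2%, and in 1 of 14 replication members, against 20.2% of 27025 genes with a window. All 13 mitosis members with a CHR also had a CCAAT box in the same window, a pair found in 7.97% of all genes. An E2F spelling stood in 6 of 14 replication members (42.9%) and in 1 of 18 mitosis members, Cdk1, against 2.605% of all genes. The CCAAT box was in 9 of 14 replication members and 16 of 18 mitosis members, against 41.1% of all genes. A match to letters is a description of the window and no proof of a bound site.

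No member differed 1.5-fold or more between the libraries in CPM summed over all cells. Of the 8701 genes with at least 5 CPM in either library 4.09% did, a share at which few of 44 would pass. Mcm6 and Tk1 did pass 1.5-fold in other sums. They stood at -0.66 and -0.59 in sums of thinned counts and at -0.64 and -0.59 in means over cells. The 44 members leaned to lower levels in Fcmr-/- cells, with 30 lower and 14 higher and a median log2 ratio of Fcmr-/- to Fcmr+/+ of -0.06, against 0.00 over all genes. The intervals of 23 members lay below 0 and those of 5 above it, against 3043 below and 3099 above among the 8701 genes. These intervals reflect the number of UMIs, taken as independent of each other, and say nothing of the spread between cells or mice.

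Of the replication members, 12 of 17 were lower in Fcmr-/- cells, with a median of -0.11 and a range from -0.47 to 0.08. Together they summed to 564 CPM (interval 559.6 to 568) in the Fcmr+/+ library and 491 CPM (interval 487 to 495) in the Fcmr-/- library. Members of the same complex did not move alike. Among the subunits of the MCM helicase, which opens the double strand ahead of the replication fork, Mcm6 stood at 43.5 CPM with an interval of 42.4 to 44.7 in the Fcmr+/+ library and at 31.3 CPM with an interval of 30.3 to 32.3 in the Fcmr-/- library, or -0.47 on the log2 scale. Mcm2 had 30.1 and 29.1 CPM and Mcm5 33.6 CPM in both libraries, and the log2 ratios of Mcm2, Mcm3, Mcm4, Mcm5 and Mcm7 lay between -0.12 and 0.04.

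Tk1, thymidine kinase, lay between 35.7 and 37.8 CPM around a level of 36.8 in the Fcmr+/+ library and between 25.5 and 27.3 CPM around 26.4 in the Fcmr-/- library, or -0.47 on the log2 scale. Rrm2, a subunit of ribonucleotide reductase, had 25.7 and 23.8 CPM and a ratio of -0.11. Pcna, the clamp that holds DNA polymerase on its template, had 143 CPM (interval 141 to 145) and 113 CPM (interval 111 to 114), a ratio of -0.34. The cyclins that start S phase were close in both libraries. Ccne2 had 6.42 and 6.47 CPM, Ccne1 8.33 and 8.26 CPM, and Cdc6, which loads the helicase, 5.26 and 5.60 CPM. Mcm4 and Cdc6, with ratios of 0.04 and 0.08, were the highest replication members, and both intervals included 0.

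Of the mitosis members, 15 of 21 were lower in Fcmr-/- cells, with a median of -0.07 and a range from -0.35 to 0.13. They summed to 735 CPM (interval 731 to 739.99) in the Fcmr+/+ library and 668 CPM (interval 664 to 673) in the Fcmr-/- library. Cenpa, the histone variant of centromeres, had 87.3 CPM in Fcmr+/+ cells and 68.0 CPM in Fcmr-/- cells, which is -0.35 on the log2 scale (interval -0.39 to -0.31). Mki67, the proliferation marker Ki-67, had 82.2 and 64.8 CPM, a ratio of -0.34 (interval -0.38 to -0.30). For Cdk1, the kinase that drives entry into mitosis, the levels were 48.7 and 41.6 CPM, a ratio of -0.22 (interval -0.28 to -0.17). These 3 had the lowest ratios of the list.

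Top2a, the topoisomerase that untangles sister chromatids, went the other way, with 65.7 CPM in Fcmr+/+ cells and 72.1 CPM in Fcmr-/- cells, a ratio of 0.13 (interval 0.09 to 0.17). Cenpf and Cenpe, which link chromosomes to the spindle, followed with ratios of 0.09 and 0.07, and the interval of Cenpe included 0. Without cells with melanoma markers, Top2a, Cenpf and Cenpe stood at 0.076, 0.017 and 0.040. Ccnb1, a cyclin partner of Cdk1, had 26.8 and 23.7 CPM. The kinase Plk1 had 12.6 and 13.1 CPM, and Cdc20, which activates the ligase that ends mitosis, had 13.4 and 13.2 CPM. The intervals of the ratios of Plk1 and Cdc20 included 0.

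Of the 44 members, Ccnd2 and Ccnd1 had the highest ratios over all cells. Ccnd2 stood at 26.8 CPM with an interval of 25.9 to 27.7 in the Fcmr+/+ library and at 37.1 CPM with an interval of 36.0 to 38.2 in the Fcmr-/- library, a ratio of 0.46. Ccnd1 had 88.0 CPM (interval 86.4 to 89.6) and 112 CPM (interval 109.9 to 114), a ratio of 0.34. Ccnd3 was the lower of the 3 in relative terms, with 41.3 and 37.6 CPM and a ratio of -0.13. Cdkn1a had 526 CPM (interval 523 to 530.5) and 519.6 CPM (interval 516 to 524). Hmgb2, a chromatin protein, had 218 and 245 CPM, a ratio of 0.17, and Stmn1, which destabilizes microtubules, had 249.6 and 192 CPM, a ratio of -0.37. These ratios changed when the states of both libraries, which are described further on, were weighted alike. Ccnd1 then stood at 0.49 and Ccnd2 at 0.20, below Cenpf at 0.67 and Ccne2 at 0.54. Stmn1, Mki67 and Cdk1 turned to 0.043, 0.21 and 0.088. The states cannot be taken as independent of the cycle, and 1 of them held only 55 Fcmr+/+ cells. The cause of the change was not tested.

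**Figure D1:**
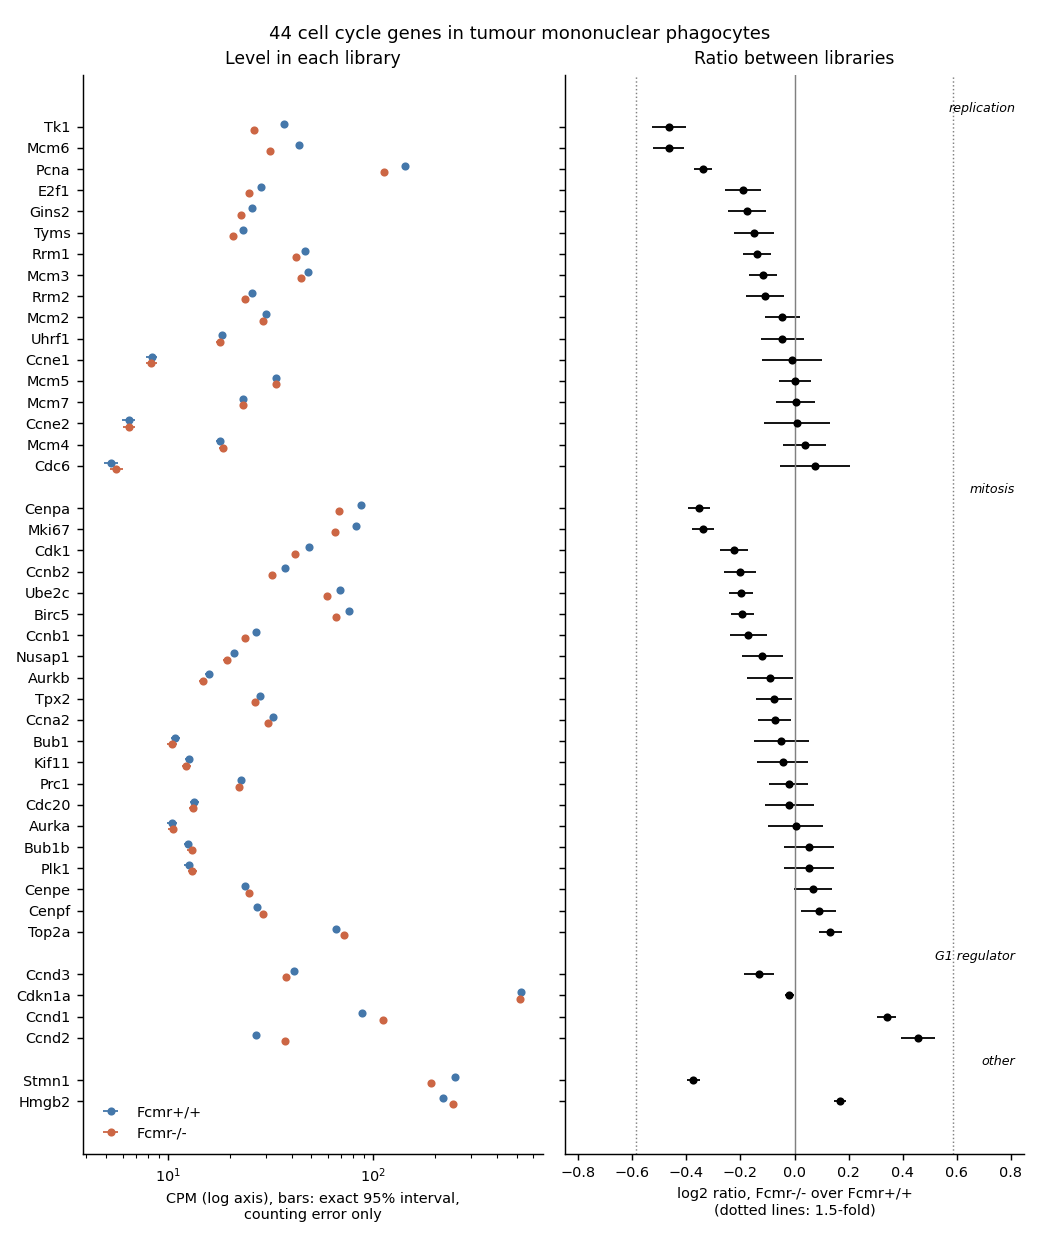
Level of each of the 44 members in the Fcmr+/+ (blue) and Fcmr-/- (orange) library in CPM on a log axis (left), and the log2 ratio of Fcmr-/- to Fcmr+/+ (right), with exact 95% intervals for counting error and dotted lines at 1.5-fold. No point lies past a dotted line, and Tk1 and Mcm6 at -0.47 and Ccnd2 at 0.46 lie nearest to them.

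The balance of the phases, as the log2 ratio of summed mitosis UMIs to summed replication UMIs, was 0.38 in the Fcmr+/+ library, with an interval of 0.37 to 0.40, and 0.44 in the Fcmr-/- library, with an interval of 0.43 to 0.46. The difference of 0.06 (interval 0.04 to 0.08) towards mitosis varied with the cells counted, being 0.17 without cells with over 5000 genes, 0.20 with the states of both libraries weighted alike and 0.027 without cells with melanoma markers. The leaning of both lists to lower levels depended on which cells were counted. When cells with over 5000 genes were left out, which removed 49.4% of the cells with at least 5 mitosis UMIs from the Fcmr+/+ library and 34.5% from the Fcmr-/- library, the medians turned to 0.081 for replication and 0.24 for mitosis.

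Expression of the members was spread unevenly over cells. At 5000 UMIs per cell, 46.1% of Fcmr+/+ cells and 53.4% of Fcmr-/- cells had no mitosis UMI, while 4.11% and 3.43% had 20 or more. At least 5 mitosis UMIs, the limit used here for high expression, were found in 796 Fcmr+/+ cells, a share of 12.5% (interval 11.7 to 13.4), and in 873 Fcmr-/- cells, a share of 10.9% (interval 10.2 to 11.6). These shares stood at -0.20 on the log2 scale (interval -0.34 to -0.06). Unthinned cells gave 30.6% and 20.5%, a wider gap in libraries of unequal depth. The limit cuts through a range, since 264 Fcmr+/+ and 243 Fcmr-/- cells had 4 to 6 mitosis UMIs.

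At least 5 replication UMIs occurred in 855 Fcmr+/+ cells, or 13.5% (interval 12.6 to 14.3), and in 829 Fcmr-/- cells, or 10.4% (interval 9.70 to 11.1). Their shares stood at -0.38 on the log2 scale (interval -0.52 to -0.24), and the unthinned shares were 46.0% and 31.2%. Cells above both limits made up 6.05% and 4.64%, and cells above the replication limit alone 7.41% and 5.73%. Above the mitosis limit alone were 6.49% and 6.28%, which is -0.05 on the log2 scale (interval -0.24 to 0.14) against -0.37 (interval -0.56 to -0.18) for the replication limit alone, and the difference between these ratios was not tested. Cells above the mitosis limit were deep, with a median of 27340 UMIs before thinning in the Fcmr+/+ library and 22855 in the Fcmr-/- library, against 15770 and 11735 in cells with no mitosis UMI. Their median Scrublet scores, which rise in mixed droplets, were 0.0857 and 0.0851 against 0.0735 and 0.0742. With the top 5% of scores removed, shares above the mitosis limit were 11.8% and 10.4%, and without cells holding a T or NK marker UMI they were 12.5% and 10.9%. Cells with melanoma markers, meaning at least 5 such UMIs before thinning, made up 8.54% of Fcmr+/+ and 11.8% of Fcmr-/- cells above the limit. Of all cells they made up 6.53% and 6.34%, and deep cells reach 5 UMIs more readily. Without cells with melanoma markers the shares above the mitosis limit were 12.3% and 10.3%.

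Single members differed in how many cells held them. An Mki67 UMI was found in 16.7% of thinned Fcmr+/+ cells and 12.7% of thinned Fcmr-/- cells, against 33.4% and 22.8% unthinned. A Top2a UMI was found in 10.8% of thinned cells of either library, and in 22.2% and 19.1% unthinned. The sorted cells hold no type known to lack these transcripts, so free RNA could not be told apart from low expression. Shares were also taken in cells in which no other replication or mitosis member had a UMI, a choice that itself keeps them low. There the thinned shares were 5.19% and 4.09% for Mki67, 3.15% and 3.04% for Top2a and 33.8% and 30.7% for Pcna. Of the commonest members, Cdkn1a had a UMI in 80.1% and 78.5% of thinned cells and in 94.8% and 91.5% unthinned, and Pcna in 40.5% and 35.3% thinned and 74.0% and 62.3% unthinned.

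**Figure D2:**
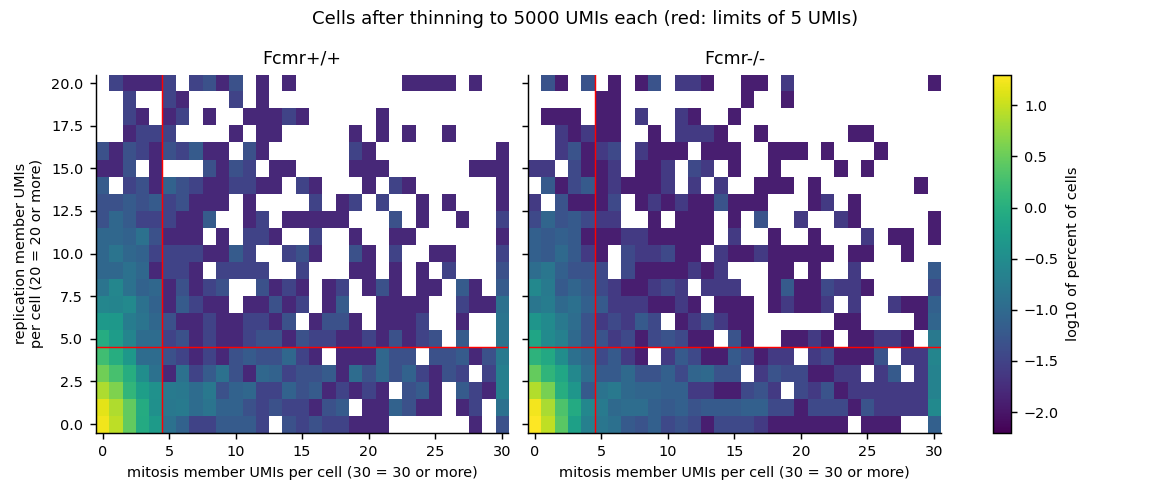
Percent of cells (color, log10; white holds no cell) at each number of mitosis UMIs (horizontal) and replication UMIs (vertical) per cell after thinning to 5000 UMIs, for each library, with red lines at the limits of 5. In both panels cells spread along each axis as well as between them, and 6.05% of Fcmr+/+ and 4.64% of Fcmr-/- cells lie above both limits.

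Levels in high-expressing cells were taken from the UMIs left over after thinning, which were not counted in placing a cell above or below the limit. Both libraries were still cut at the same sum over the mitosis members. Close mitosis levels in this class follow in part from that rule and are a description. In cells above the mitosis limit, 0 of 21 mitosis members and 0 of 17 replication members differed 1.5-fold between the libraries, where 5.05% of all genes did, and their median log2 ratios were 0.01 and -0.02. Mitosis members summed to 3237 CPM in these Fcmr+/+ cells and 3155 CPM in these Fcmr-/- cells, and replication members to 1272 and 1162 CPM. Their phase balance was 1.35 and 1.44. Hmgb2 was higher in Fcmr-/- cells, with 592 and 797 CPM and a ratio of 0.43 (interval 0.39 to 0.46). Pcna was lower, with 249 and 188 CPM, a ratio of -0.40 (interval -0.47 to -0.34), as was E2f1, with 42.7 and 32.0 CPM, a ratio of -0.40 (interval -0.56 to -0.25).

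Ccnd2 was the only member past 1.5-fold in these cells, where 3% of all genes were higher past that fold, with 21.4 CPM in the Fcmr+/+ library and 32.8 CPM in the Fcmr-/- library, a ratio of 0.59 (interval 0.41 to 0.77). Ccnd1 had 102 and 143 CPM, a ratio of 0.48, while Cdkn1a had 464 and 385 CPM, a ratio of -0.27. T and NK cell markers also differed in these cells, with 0.931 and 54.8 CPM. Without cells holding a UMI of such a marker, a choice made after seeing the data, Ccnd2 stood at 0.55, which is no longer past 1.5-fold, and Hmgb2, Ccnd1 and Pcna at 0.40, 0.47 and -0.41. In cells with no mitosis UMI, Cdkn1a had 563 and 568 CPM. There, genes with at least 5 CPM in either library were counted, and 2.2% of all genes were lower in Fcmr-/- cells past 1.5-fold. So were 2 of 13 replication members, 1 of 7 mitosis members, 0 of 4 G1 regulators and 1 of the 2 other members. These were Tk1 at -0.74, Mki67 at -0.66, Mcm6 at -0.64 and Stmn1 at -0.60. Tk1, with 7.69 and 4.19 CPM, reached 5 CPM in the Fcmr+/+ library alone. In cells above the limit the same members stood at -0.35, -0.19, -0.13 and -0.23. Mki67 is itself part of the rule for the class.

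Within each library, cells above the mitosis limit also held more of the other phase. Mcm5 had 69.5 CPM above the limit and 18.3 CPM in cells with none in the Fcmr+/+ library, and 76.3 and 17.2 CPM in the Fcmr-/- library. The difference was wide for Rrm1, the other subunit of ribonucleotide reductase, at 2.81 and 2.92 on the log2 scale, and narrow for Pcna at 1.22 and 1.03 and for E2f1 at 0.96 and 0.54. Rrm2, Cdc6, Ccne1 and Ccne2 stayed below 5 CPM in cells with none of both libraries and Tk1 in those of the Fcmr-/- library, so the replication members are not counted here. The G1 regulators divided. Ccnd1 was higher in cells above the limit, by 0.35 and 0.52 on the log2 scale, Ccnd3 by 0.24 and 0.26, whereas Ccnd2 stood at -0.55 and -0.35 and Cdkn1a at -0.28 and -0.56.

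Over cells, mitosis members moved together more tightly than replication members. Pearson's r of thinned, log-transformed UMIs had a median of 0.33 over the 210 pairs of mitosis members in the 6352 Fcmr+/+ cells and 0.34 in the 7999 Fcmr-/- cells, 0.17 in both over the 136 pairs of replication members, and 0.09 in both over the 357 pairs across the lists. All values of a library share its cells and depth, and low counts hold r down. Birc5, which encodes survivin, tracked the summed mitosis UMIs of the other members most closely, at 0.67 and 0.69, and Stmn1, outside the list, reached 0.65 and 0.67. Tk1 and Rrm1 tracked the mitosis sum, at 0.46 and 0.39 in Fcmr+/+ cells, while Mcm4 and Cdc6 stood at 0.09 and 0.03. Cdkn1a was negative in both libraries, at -0.13 and -0.17, and Ccnd2 lay at -0.04 and -0.01.

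**Figure D3:**
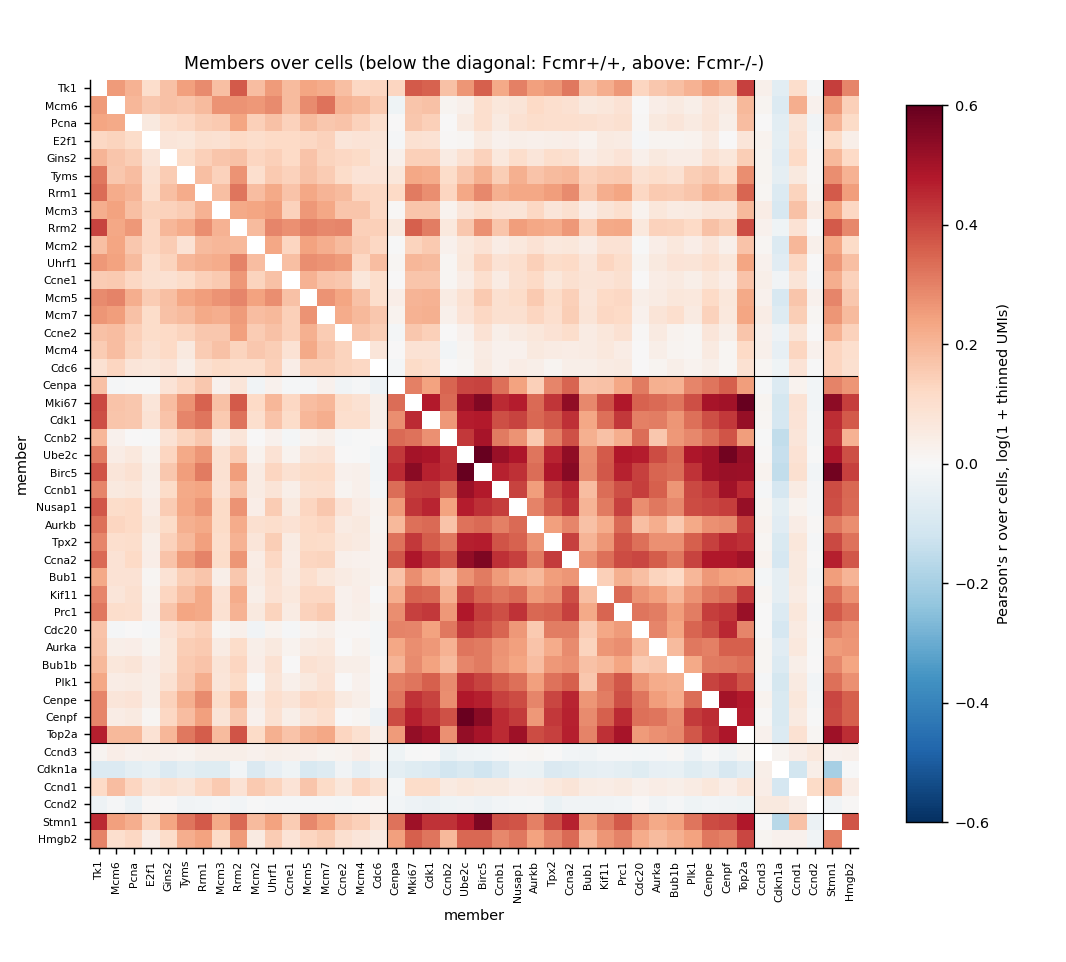
Pearson's r over cells between all pairs of members after thinning and log transformation, with Fcmr+/+ below the diagonal and Fcmr-/- above it, and lines between replication, mitosis, G1 and other members. The mitosis block is the darkest, with medians of 0.33 and 0.34, against 0.17 in the replication block, and Cdkn1a is negative with all 21 mitosis and all 17 replication members in both libraries.

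Macrophage states were found by clustering both libraries together, with the cell cycle genes of the fixed lists left out. This gave 10 clusters, called here by number and leading genes. High expression of the members was concentrated in 3 of them. State 2 was led by Pbk, Tk1, Mki67, Nusap1 and Tfrc, and 9 of its 10 leading genes were listed cell cycle genes, left out of the clustering. Division genes outside the lists, such as 2810417H13Rik and Hist1h1b, were not left out, so the states cannot be taken as independent of the cycle. In state 2, 38.2% of the Fcmr+/+ library's cells (interval 35.6 to 40.7) and 54.3% of the Fcmr-/- library's (interval 49.5 to 59.1) lay above the mitosis limit. State 6, led by the interferon-gamma targets Iigp1 and Cxcl9, had 17 of 55 such cells in the Fcmr+/+ library, or 30.9% (interval 19.1 to 44.8), and 473 of 1350 in the Fcmr-/- library, or 35.0% (interval 32.5 to 37.6). State 8, led by Pdgfa, Bhlhe41 and Mmp12, had 17.2% and 20.2%.

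The other 7 states held few such cells. State 1, led by Ccl17, Il1r2, Ear2 and Retnla, had 5.34% and 6.34%. State 3, led by Atp6v0d2, Acp5 and Apoe, had 3.28% and 2.75%, and state 5, led by Ly6c2 and Gbp4, had 3.57% of 84 Fcmr+/+ cells and 1.69% of 1656 Fcmr-/- cells. In state 4, with Cxcl3, Il1a and Il1b, state 7, with hemoglobin genes and Hspb1, state 9, with Mfge8 and Plpp3, and state 10, with the type I interferon targets Rsad2 and Ifit3, the share was below 2% in both libraries. State 10 had 0 of 223 Fcmr+/+ cells, an observation whose interval reaches 1.64%. State 7 held the shallowest Fcmr-/- cells, with a median of 7656 UMIs.

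**Figure D4:**
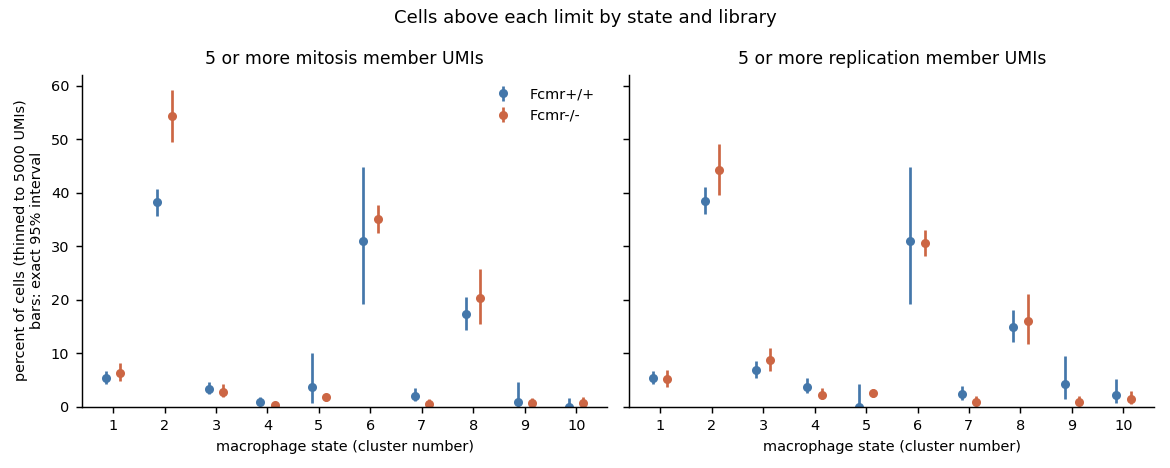
Percent of cells with at least 5 mitosis UMIs (left) or replication UMIs (right) after thinning, by macrophage state and library, with exact 95% intervals for counting error. States 2, 6 and 8 stand above the others in both libraries, and in state 2 the mitosis share is 38.2% in Fcmr+/+ and 54.3% in Fcmr-/- cells.

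The phase balance counts the same mitosis UMIs that place a cell above the limit, so its order over states is a description. It was 0.68 in Fcmr+/+ and 0.94 in Fcmr-/- cells of state 2, 0.72 and 0.67 in state 6, 0.35 and 0.55 in state 8, and 0.11 and 0.33 in state 1. It was negative in the other 6 states in both libraries, down to -1.09 in Fcmr+/+ cells of state 10 and -1.20 in Fcmr-/- cells of state 4. State 3 kept many cells above the replication limit, 6.74% and 8.68%, for its few above the mitosis limit.

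Of the G1 regulators, Ccnd1 was highest in state 2 in both libraries. The others followed another order of states, with Ccnd2 and Ccnd3 highest in state 1 and Cdkn1a in state 10. Ccnd2 had 69.9 CPM in Fcmr+/+ and 97.1 CPM in Fcmr-/- cells of state 1, 49.2 and 50.6 CPM in state 5 and 62.1 and 51.2 CPM in state 10, but 11.7 and 11.3 CPM in state 2 and 10.9 and 10.3 CPM in state 8. It had 31.1 and 36.0 CPM in state 6 and was as low in states with few high-expressing cells, at 7.66 and 10.5 CPM in state 9 and 9.54 and 11.6 CPM in state 3. Ccnd1 had 144 and 206 CPM in state 2 and 96.6 and 181 CPM in state 6, against 18.7 and 23.9 CPM in state 7. Cdkn1a had 833 and 927 CPM in state 10, 749 and 725 CPM in state 4 and 735 and 640.2 CPM in state 1, but 385 and 369 CPM in state 2 and 364 and 327 CPM in state 6. Its lowest level in both libraries, 351 and 272 CPM, was in state 3.

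Summed by state, replication members were lower in Fcmr-/- cells in every state but state 2, as in the whole libraries. The intervals of both libraries overlapped in states 1, 3, 5, 6 and 8. Mitosis members were higher in states 1, 2 and 8, close in state 5 at 162.5 and 163.3 CPM, and lower in the others. Their intervals overlapped in states 5 and 10. In state 2, 12 of 21 mitosis members and 2 of 17 replication members were higher past 1.5-fold in Fcmr-/- cells, where 2.42% of all genes were. Cenpf had 65.4 CPM in Fcmr+/+ and 121 CPM in Fcmr-/- cells of state 2, Prc1 53.9 and 98.9 CPM, and Top2a 158 and 273 CPM. With the states of both libraries weighted alike, replication members summed to 534 CPM in Fcmr+/+ and 557 CPM in Fcmr-/- cells and mitosis members to 692 and 828 CPM, so both directions turned. For replication members, state 2 alone went in the turned direction, with 1025 CPM in Fcmr+/+ and 1276 CPM in Fcmr-/- cells. The median ratio of the 21 mitosis members was 0.59 in state 2 and -0.18 in state 6, which held only 55 Fcmr+/+ cells. In states 1 and 8, 0 and 1 of 21 mitosis members were higher past 1.5-fold, where 2.07% and 3.44% of all genes were. In state 3, 0 of 12 mitosis members with at least 5 CPM passed 1.5-fold, where 4.23% of all genes did. In state 4, with 7 and 3 cells above the limit, Mki67 had 21.9 CPM in Fcmr+/+ and 11.5 CPM in Fcmr-/- cells and Cenpa 39.4 and 30.6 CPM. In state 7, with 12 and 3 such cells, Mki67 had 14.1 and 7.12 CPM and Cenpa 67.9 and 68.5 CPM. In both states the lists were lower in Fcmr-/- cells. All 21 mitosis members summed to 137 and 98.5 CPM in state 4 and to 186 and 135 CPM in state 7. Replication members summed to 284 and 227 CPM in state 4 and to 225 and 161 CPM in state 7. The median mitosis ratios were -0.52 and -0.83, over the 7 and 8 members with at least 5 CPM in either library. A member could enter through the higher library alone, which widens such medians. In state 4, Ube2c did so, with 4.31 CPM in Fcmr-/- cells, so these medians are a description. States 5, 6, 9 and 10 held 84, 55, 119 and 223 Fcmr+/+ cells, and members past 1.5-fold were not counted there.

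The difference within state 2 depended on how states were drawn. Of the cells above the mitosis limit, state 2 held 68.7% in the Fcmr+/+ library but 26.6% in the Fcmr-/- library, where state 6 held 54.2%. When genes that differed 1.5-fold between the libraries were also kept out of the clustering, a choice made after seeing the data, 1 state led by Hist1h1b and Pbk took 59.0% of the high-expressing Fcmr+/+ cells and 56.9% of the high-expressing Fcmr-/- cells, and 88.3% and 89.2% of its cells lay above the limit. When genes that differed with the mitosis class were kept out in their place, the state led by Tfrc and Ednrb had 25.1% and 29.4% of cells above the limit, and the state led by Pbk and Hmmr had 35.8% and 29.2%. The share of a state above the limit therefore varied with the genes that drew the states.

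High-expressing cells also differed from cells with no mitosis UMI in genes outside the cycle. Monocyte genes such as Plac8 and Chil3 summed to 144 CPM above the limit and 439 CPM in cells with none in the Fcmr+/+ library, and to 235 and 637 CPM in the Fcmr-/- library, with 6 of 6 genes lower past 1.5-fold in each, where 3.68% and 4.09% of all genes were. In the Fcmr-/- library 1 of them, Hp, reached 5 CPM in cells with none alone. Hypoxia genes such as Vegfa, Arg1 and Egln3 summed to 1646 and 3349 CPM in Fcmr+/+ cells and to 1643 and 3603 CPM in Fcmr-/- cells, with 8 of 9 genes lower past that fold in each. Type I interferon targets summed to 279 and 630 CPM in Fcmr+/+ cells and to 534 and 926 CPM in Fcmr-/- cells. Inflammatory genes summed to 5177 and 7034 CPM in Fcmr+/+ cells and to 3893 and 7225 CPM in Fcmr-/- cells, and lipid-associated genes to 8639 and 11503 CPM and to 8713 and 15583 CPM. Genes of Mrc1-high resident macrophages had 1978 and 1963 CPM in Fcmr+/+ cells and 1494 and 1328 CPM in Fcmr-/- cells. The complement list of C1qa, C1qb, C1qc and Apoe had 13624 and 13929 CPM and 13215 and 11814 CPM. In each library 3 of these 4 genes were higher above the limit, with medians of 0.24 and 0.41. So were 5901 of 8882 genes in the Fcmr+/+ library and 6042 of 8908 in the Fcmr-/- library. Macrophage markers were close, at 18836 and 19124 CPM in Fcmr+/+ cells and 18754 and 19464 CPM in Fcmr-/- cells.

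Type II interferon targets did not follow this pattern in the Fcmr-/- library. They summed to 39.4 CPM above the limit and 64.4 CPM in cells with none in Fcmr+/+ cells, but to 641 and 434 CPM in Fcmr-/- cells. There 7 of 7 were higher above the limit, as were 6042 of 8908 genes. Past 1.5-fold was 1 of the 7, against 11.8% of all genes. Of these targets, Cxcl9 had 5.48 CPM in Fcmr+/+ and 274 CPM in Fcmr-/- cells above the limit, Gbp2 10.9 and 180.2 CPM, and Igtp 9.16 and 39.9 CPM. In cells with none, Cxcl9 had 18.1 and 159 CPM, Gbp2 22.0 and 122 CPM, and Igtp 11.2 and 35.5 CPM. Other targets of the list reached 5 CPM in Fcmr-/- cells but hardly or not in Fcmr+/+ cells and are not counted between the libraries. MHC class II genes summed to 2811 CPM above the limit and 5732 CPM in cells with none in Fcmr+/+ cells, and to 5543 and 7637 CPM in Fcmr-/- cells. The median difference of MHC class II genes between the libraries was 0.99 above the limit and 0.42 in cells with none. T and NK cell markers moved with this contrast. In cells above the limit they had 18 UMIs in the Fcmr+/+ library, 0.931 CPM with 5 of 7 genes at 0, and 928 UMIs in the Fcmr-/- library, 54.8 CPM with 1 of 7 genes at 0, and in cells with none they had 1.70 and 4.77 CPM. Without cells holding such a UMI, Cxcl9 had 5.68 and 277 CPM and Gbp2 9.80 and 183 CPM above the limit.

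**Figure D5:**
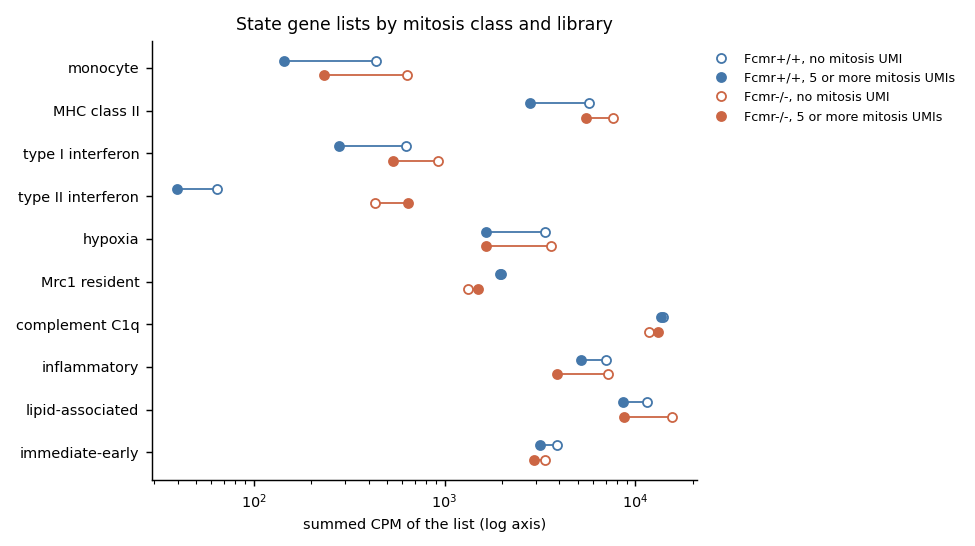
Summed CPM (log axis) of 10 gene lists in cells with no mitosis UMI (open) and with at least 5 mitosis UMIs (filled) of each library (Fcmr+/+ blue, Fcmr-/- orange). The filled points lie left of the open ones for monocyte, hypoxia and type I interferon genes in both libraries, while type II interferon genes lie at 39.4 and 64.4 CPM in Fcmr+/+ and at 641 and 434 CPM in Fcmr-/- cells.

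Among genes missing from the fixed cell cycle lists, several of the 10 highest in cells above the limit in both libraries act in chromatin or division. Absence from these lists does not place a gene outside the cycle. 2810417H13Rik, a partner of PCNA, had 292 CPM above the limit and 7.19 CPM in cells with none in the Fcmr+/+ library, and 344 and 6.02 CPM in the Fcmr-/- library. Ezh2, a histone methyltransferase, had 86.5 and 15.5 CPM and 97.8 and 16.1 CPM. Hist1h1b, Asf1b, Spdl1, Tmpo, Ccdc34, H2afv, Lmnb1 and Pmf1 completed the 10 highest. Lowest were Slpi, Cxcl3, Thbs1, Arg1, Egln3, Rgcc, Vegfa, Pdpn, Rsad2 and Plac8. Thbs1, a matrix protein, had 329 and 1067 CPM in Fcmr+/+ cells and 351 and 1222 CPM in Fcmr-/- cells.

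Other cell cycle genes were listed apart from the 44 members, and their replication genes did not share the lower leaning of the replication members. Of 35 other replication genes, 31 had at least 5 CPM, and 0 differed 1.5-fold between the libraries, with 14 higher and 17 lower. Their median was -0.01, against -0.11 for the replication members. In cells above the mitosis limit, 25 of 33 were higher in Fcmr-/- cells, against 6 of 17 replication members and 4567 of 8930 genes. The medians of the 2 replication lists there were 0.13 and -0.02. Of 58 other mitosis genes, 52 had at least 5 CPM, 0 differed 1.5-fold, and the median was -0.04. Foxm1, a factor that switches on mitosis genes, had 9.03 and 6.71 CPM, a ratio of -0.38, and Ccnf had 6.64 and 4.96 CPM, whereas Kif15 and Casc5 stood at 0.20 and 0.17. Among replication genes, Chaf1b and Cdt1 were lowest, at -0.32 and -0.29, and Rfc3 and Hells highest, at 0.19 and 0.18.

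Of 31 other cycle regulators, 25 had at least 5 CPM, 10 higher and 15 lower, and 1 differed 1.5-fold, where 4.09% of all genes did. This was Tfdp2, a partner of E2F factors, which had the lowest ratio, -0.61. It had 5.24 CPM in Fcmr+/+ cells, just above the lower limit of 5, and 3.08 CPM in Fcmr-/- cells. Cdkn2d, an inhibitor of the cyclin D kinases, had 38.5 and 26.1 CPM, a ratio of -0.54. Cdkn1b, which encodes p27, and E2f4 were higher, at 0.35 and 0.29. Of 9 genes that control macrophage growth, 0 differed 1.5-fold. Klf4 had 260.5 and 185 CPM. Myc had 18.0 and 13.8 CPM, and Csf1, a growth factor of macrophages, 7.32 and 9.39 CPM. Csf2rb, a receptor subunit for GM-CSF, had 119 and 134 CPM.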

How the data were processed

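The deposited tables hold each cell's UMI count for each gene, unnormalized, and the submitters' processing notes name Cell Ranger, Seurat 2.1.0 and the build GRCm38. Here the study's limits on cells were applied, from 200 to 7000 genes and at most 30% mitochondrial UMIs. Counts were summed over cells to CPM, and 1 CPM was added before taking log2 ratios. Genes had to reach 5 CPM in at least 1 group. Cells were thinned to 5000 UMIs without replacement, which left out 0 cells. Levels in cells above a limit or with no mitosis UMI came from the UMIs not drawn. Clusters came from Seurat 5.3.0 (R 4.3.3) after log-normalization to a total of 10000 per cell, 10 principal components, a resolution of 0.8 and 1253 variable genes after 83 cell cycle genes were left out. Other calculations used Python 3.11.15, numpy 2.4.6 and scipy 1.17.1. Scrublet, in scanpy 1.11.5, called 0 doublets in each library, so the highest 5% of scores were removed in an alternative.

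With 1 library per genotype no test was made. Intervals were exact Poisson (CPM), Clopper-Pearson (shares) or conditional (ratios) intervals. "Past 1.5-fold" replaced a test. In sums of 8548 genes simulated with counting error alone, 100% of 200 genes changed 2-fold passed this limit and 0% of the others did. The simulation held no spread between mice or cells, so it gives no rate of false calls for these libraries.

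The members and lists were chosen with earlier results of these data known. Named in the text are the 3 highest and 3 lowest ratios of the replication and mitosis lists, fixed members (Mcm2, Mcm5, Pcna, Rrm2, Ccne2, Mki67, Top2a, Cdk1, Ccnb1, Cdc20, Plk1), all G1 and other members, the 2 highest and 2 lowest of other lists, and the 10 highest and 10 lowest genes by the smaller ratio of both libraries above the limit, with at least 50 CPM. Those 20 genes compare cells above the mitosis limit with cells holding no mitosis UMI. Other genes were named after their values were seen.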

Additional observations from a re-analysis of the deposited data

How the results depend on the processing

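No paired analysis was possible because each genotype has 1 library. Of 107 comparisons of a main value with an alternative, 74 stayed within counting error or 1.5 times the count, and 33 moved. Some of the 74 could not move. Another fold limit leaves medians as they were, and a count of 0 at 1.5-fold stays 0 at 2-fold. All replication and mitosis members passed the CPM filter, so leaving it out changed nothing for them. The count of 74 is therefore no measure of stability. With at most 5000 genes per cell, the medians were 0.081 (replication) and 0.24 (mitosis), 1 mitosis member passed 1.5-fold and the phase balance differed by 0.17. With both libraries weighted to the same states they were 0.12 and 0.29, with 1 mitosis member and a difference of 0.20. Sums of thinned counts gave -0.17 with 2 replication members past 1.5-fold, Mcm6 and Tk1, and -0.16 for mitosis. Means over cells gave -0.18 with the same 2 replication members. Without cells with melanoma markers the phase balance differed by 0.027. At 20 CPM the mitosis median was -0.15. At a lower fold limit, 3 replication, 2 mitosis and 10 other cell cycle genes passed, and at 20 CPM or 2-fold 0 other cell cycle genes did. Without thinning the log2 ratios of shares were -0.58 (mitosis) and -0.56 (replication). The highest share of a state above the mitosis limit was, in Fcmr+/+ and Fcmr-/- cells, 24.8% and 24.4% at resolution 0.4, 62.2% and 67.1% at 1.2, 93.7% and 94.8% with 20 principal components, 92.7% and 94.8% with cell cycle genes kept, 88.3% and 89.2% without genes that differed between libraries, and 29.4% in Fcmr-/- cells without genes that differed with the mitosis class. The last 2 were chosen after seeing the data. The cause of these changes was not tested. Depth limits the rarest members: Cdc6 had 676 and 698 UMIs.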
